A study of Mus musculus with 8 samples.

Results

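The glutathione S-transferase (GST) genes described here were Gstm1 to Gstm7, Gsta4, Gstt1 and Gstp1, 10 of the 23235 gene symbols measured, and their rows were taken by symbol. RNA was sequenced from mouse spermatocytes sorted by flow cytometry into leptotene and zygotene cells (LZ) and pachytene and diplotene cells (PD), from WT males and from Cnot4-null males, with 2 libraries described as biological replicates in each of the 4 groups. The mice were C57BL/6 males, 6 weeks old. The Cnot4-null cells came from Cnot4 fl/fl;Stra8-Cre males, in which a Cre recombinase driven by the germ cell promoter Stra8 removed a floxed exon of Cnot4, a regulatory subunit of the CCR4-NOT deadenylase complex. The sources used here do not state whether the WT males carried the floxed allele or the Cre. In all groups the testis was digested with enzymes and the cells were sorted by their Hoechst and propidium iodide signals.

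GST enzymes couple the tripeptide glutathione to electrophilic compounds, which makes these compounds more soluble and ready for export from the cell. The cytosolic enzymes work as dimers and are grouped into classes by sequence: the mu class (the Gstm genes), alpha (Gsta4), theta (Gstt1) and pi (Gstp1). Mu-class subunits pair with each other, Gsta4 acts well on 4-hydroxynonenal, a product of lipid peroxidation, and Gstp1 is widely expressed in epithelia. Mouse Gstm5 is the counterpart of the human testis and brain enzyme GSTM3. The steroid-producing Leydig cells, which lie outside the seminiferous tubules, are also rich in GST enzymes.

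The 7 Gstm genes lay side by side on chromosome 3 (chr3:107698739-107847812, mm9), in the order Gstm5, Gstm7, Gstm6, Gstm3, Gstm2, Gstm1 and Gstm4, over 149074 bases. Gstm5 stood at one end on the plus strand, and the other 6 were on the minus strand. Gsta4 (chr9:78039773-78057155, plus strand), Gstt1 (chr10:75246558-75261329, minus strand) and Gstp1 (chr19:4035411-4037921, minus strand) lay on other chromosomes. In the GENCODE annotation of this assembly the Gstm3 and Gstm6 models overlapped by 1417 bases on the same strand. Gm12494, also on that strand, overlapped Gstm3 by 10192 bases and Gstm6 by 505. The first 393 bases of Gstm5 overlapped 4933431E20Rik on the opposite strand. That neighbour was at 12.7 and 13.8 FPKM in the WT PD libraries, far under Gstm5.

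The coding sequences show how alike the mu-class genes are, which bears on how short reads could be assigned to them. Gstm2, Gstm1, Gstm3, Gstm4, Gstm6 and Gstm7 each code for 218 amino acids, and Gstm5 for 224. Gstm2 was identical at 86.0% of aligned coding bases to Gstm1, at 85.5% to Gstm6, at 84.9% to Gstm7, at 84.8% to Gstm3 and at 82.6% to Gstm4, but only at 71.0% to Gstm5. The 50-base stretch of the Gstm2 coding sequence that was most like its 5 equal-length paralogs was coding bases 190 to 239, shown here 5′ to 3′ from GENCODE, with capitals at bases that differ from Gstm2.
Gstm2: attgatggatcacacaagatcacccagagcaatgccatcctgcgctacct
Gstm1: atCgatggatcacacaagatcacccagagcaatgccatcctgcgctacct
Gstm3: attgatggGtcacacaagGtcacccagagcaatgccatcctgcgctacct
Gstm6: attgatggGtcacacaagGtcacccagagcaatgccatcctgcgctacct
Gstm4: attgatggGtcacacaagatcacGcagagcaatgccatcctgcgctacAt
Gstm7: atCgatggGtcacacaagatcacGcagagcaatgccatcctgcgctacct
Gstm1 differed from Gstm2 there at 1 base, Gstm3 and Gstm6 at the same 2 bases, and Gstm4 and Gstm7 at 3. The least alike stretch was the end of the coding sequence, bases 608 to 657, where Gstm1 differed from Gstm2 at 17 bases and Gstm6 at 25. The sequences of the pair that moved most are given for contrast.
Gstm2: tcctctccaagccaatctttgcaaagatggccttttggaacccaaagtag
Gstm1: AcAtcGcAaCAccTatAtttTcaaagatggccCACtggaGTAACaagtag
Of all 50-base windows of the Gstm2 transcript, 43.7% also occurred elsewhere in the genome or in the transcript of another coding gene. The share was 30.9% for Gstm1, 29.5% for Gstm3, 10.1% for Gstm6 and 0.302% for Gstm4. It was 68.6% for Gstp1, nearly all of it shared with its copy Gstp2, and 0 for Gstm5, Gstm7, Gsta4 and Gstt1. Reads of 50 bases were kept by the authors only where they mapped uniquely. Reads from the shared windows of Gstm2, Gstm1, Gstm3 and Gstp1 could thus be lost or divided, and the levels of these genes are uncertain in every library. The methods describe paired-end reads, and the windows take no account of a mate, so these shares do not measure the extent of that uncertainty.

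The promoters of the cluster were compared because Gstm1 and Gstm2 moved together while Gstm5 did not. The 250 bases before the RefSeq start (GRCm38.p6) are shown for Gstm1 (chr3:108017974-108018223, minus strand), Gstm2 (chr3:107986421-107986670, minus strand) and Gstm5 (chr3:107895604-107895853, plus strand), with capitals at the only match to a motif searched.
Gstm1: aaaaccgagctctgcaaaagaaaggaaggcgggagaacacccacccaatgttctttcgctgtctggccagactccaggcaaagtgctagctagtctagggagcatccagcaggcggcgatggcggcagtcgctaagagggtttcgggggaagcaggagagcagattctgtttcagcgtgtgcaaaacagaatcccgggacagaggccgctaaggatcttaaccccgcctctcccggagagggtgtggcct
Gstm2: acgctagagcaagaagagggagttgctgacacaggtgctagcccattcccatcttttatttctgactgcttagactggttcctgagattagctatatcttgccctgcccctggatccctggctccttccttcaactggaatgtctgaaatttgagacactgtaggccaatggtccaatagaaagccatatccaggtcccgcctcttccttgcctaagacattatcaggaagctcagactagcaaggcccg
Gstm5: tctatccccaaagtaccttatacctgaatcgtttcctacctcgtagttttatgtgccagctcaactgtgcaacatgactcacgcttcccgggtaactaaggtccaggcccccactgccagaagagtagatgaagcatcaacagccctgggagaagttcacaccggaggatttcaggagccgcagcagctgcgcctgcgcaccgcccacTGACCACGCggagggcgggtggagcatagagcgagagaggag
The match in Gstm5, 42 to 34 bases before the start, was to the core of the antioxidant response element (TGACNNNGC, either strand), the site through which NRF2 acts on many detoxification genes. This core occurred in 10.2% of 32851 promoters of the same length. RefSeq sequences were matched for 9 of the 10 genes, all but Gsta4. None of the 9 held the site of the steroidogenic factor SF-1 (AAGGTCA, in 4.08% of promoters) or the full cAMP response element (TGACGTCA, in 1.55%), and Gstm7 alone held a TATAAA (in 12.4%). The Gstm2 stretch held 3 CpG and the Gstm1 and Gstm5 stretches 13 each, against a median of 6 over all promoters. A match or its absence describes these letters in this window only.

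Levels are given in FPKM (fragments per kilobase of gene model, scaled to the mapped fragments of the library), which allows a comparison between genes. The summed FPKM of a library ran from 676452 to 893372. Replicates had Spearman correlations across genes between 0.892 (Cnot4-null PD) and 0.968 (WT PD). In WT, all 8 PD spermatocyte markers were called higher in PD than in LZ. Of the 8 LZ spermatocyte markers, 4 were called lower in WT PD (Dmc1, Prdm9 and Sycp1 among them), Spo11 was called higher (2.68) and 3 were not called, so these matched the labels only in part. The 7 spermatogonium markers summed to 324 and 446 FPKM in Cnot4-null PD and to 19.6 and 12.9 in WT PD, but to between 463 and 717 in the 4 LZ libraries. The 8 spermatid markers summed to 15904 and 7202 in Cnot4-null PD and to 410 and 260 in WT PD, with 1838 and 1518 in WT LZ and 4071 and 719 in Cnot4-null LZ. Transcripts of cells outside the germ line were also higher in Cnot4-null PD than in WT PD, and these values stand beside the PD results. Cnot4 itself had 36.0 and 34.9 FPKM (WT) and 43.2 and 34.6 (Cnot4-null) at LZ, and 76.6 and 73.1 (WT) and 65.9 and 53.5 (Cnot4-null) at PD, with no genotype call. One value per gene cannot show the loss of a single exon, so it does not check the genotype. All differences below are of log2(FPKM + 1), fitted with limma over the 15899 genes that exceeded an FPKM of 1 in some library, and a gene is said to be called where its adjusted p was under 0.05.

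Gstm1, a major mu-class enzyme of liver and other tissues, reached 819 and 1258 FPKM in Cnot4-null PD, where the WT PD libraries had 33.4 and 4.63. The LZ libraries had 13.7 and 25.2 (WT) and 5.49 and 3.78 (Cnot4-null). The Cnot4-null PD libraries stood far above the other 6, and as a ratio the WT PD libraries differed between themselves more than the replicates of any other group. The ratio of mean FPKM between Cnot4-null and WT at PD was 54.7, and the lowest Cnot4-null library exceeded the highest WT library 24.5-fold. The log2 difference at PD was 6.19 ± 0.77 (SE, adjusted p = 0.00085, limma). In bulk samples such as these, more or fewer cells of a type and more or less RNA per cell cannot be told apart.

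Gstm2, which forms dimers with other mu-class subunits, was likewise highest in Cnot4-null PD. The PD libraries had 14.0 and 3.48 FPKM (WT) and 366 and 661 (Cnot4-null), and the LZ libraries had 24.5 and 35.3 (WT) and 3.75 and 5.76 (Cnot4-null). The genotypes did not overlap at either stage, with Cnot4-null above WT at PD and below WT at LZ. The log2 difference at PD was 5.91 ± 0.57 (adjusted p = 0.000343), a 58.8-fold ratio of mean FPKM. The lowest Cnot4-null PD library exceeded the highest WT PD library 26.2-fold. At LZ the difference was −2.43 ± 0.57 and was not called (adjusted p = 0.55), although the lowest WT library was 4.26 times the highest Cnot4-null library. From WT LZ to WT PD Gstm2 fell by 1.89 ± 0.57 (adjusted p = 0.0233), a call lost in 9 of 16 alternatives (adjusted p up to 0.147).

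Gstm5, the germ cell member of the class, ran the other way. Its 3932 and 3462 FPKM in WT PD ranked 13 and 21 among all gene symbols, and the Cnot4-null PD libraries had 1889 and 789. The LZ libraries, with 139 and 191 (WT) and 189 and 92.8 (Cnot4-null), overlapped between genotypes. From LZ to PD it rose by 4.50 ± 0.48 in WT (adjusted p = 0.000187) and by 3.19 ± 0.48 in Cnot4-null (adjusted p = 0.00207). At PD it was lower in Cnot4-null, with a difference of −1.60 ± 0.48 (adjusted p = 0.0267), and Cnot4-null replicate 2 was the lowest of the 4 PD libraries. This call was lost without WT LZ replicate 1 (adjusted p = 0.0518), WT LZ replicate 2 (0.0515), WT PD replicate 1 (0.125), WT PD replicate 2 (0.0975) or Cnot4-null PD replicate 2 (0.158), with no filter (0.094) and with the PD libraries alone (0.144), and its adjusted p ran from 0.00131 to 0.158 over the alternatives. The difference itself ran from −3.03 after rescaling to one median to −0.97 without Cnot4-null PD replicate 2. Of the 8 PD spermatocyte markers, 2 were called lower in Cnot4-null PD (Adam3 and Spag6) and 6 were not called, where 11.5% of all genes tested were lower and 41.6% higher. Their sum was 11928 and 11026 FPKM (WT) and 5306 and 1811 (Cnot4-null), of which Ldhc, the testis lactate dehydrogenase, made up 81.4% to 88.8%. Gstm5 was 0.33 and 0.314 of that sum in WT and 0.356 and 0.435 in Cnot4-null. Against the other 7 markers, without Ldhc, the ratio was 2.95 and 2.66 in WT and 2.62 and 2.34 in Cnot4-null, so the order of the genotypes turned with that gene.

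**Figure D1:**
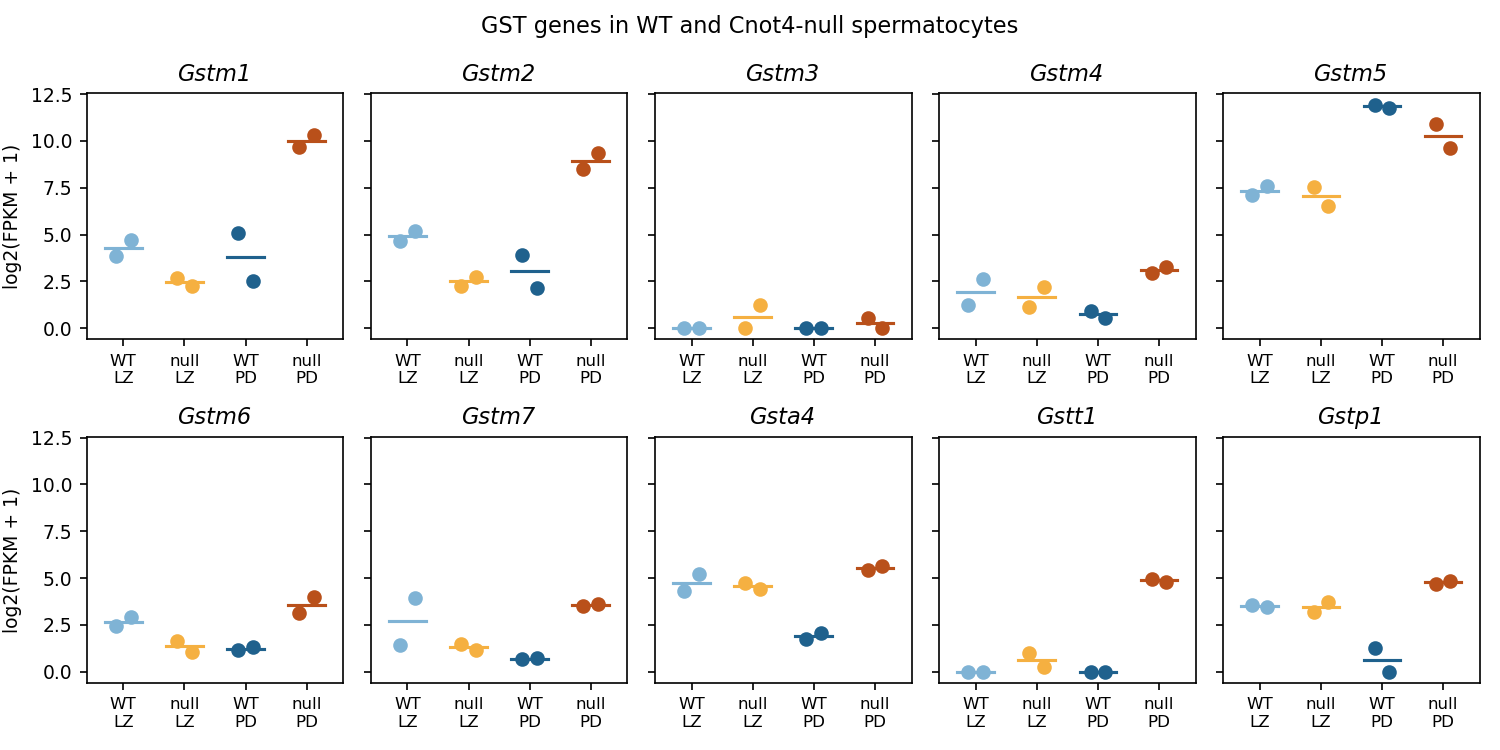
Level of each of the 10 GST genes in each library as log2(FPKM + 1), with 1 point per library and a line at the group mean. In Cnot4-null PD, Gstm1 and Gstm2 stand above all other libraries, whereas Gstm5 is highest in WT PD, at 3932 and 3462 FPKM.

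The remaining mu-class genes were low. Gstm6 had 7.85 and 15.2 FPKM in Cnot4-null PD against 1.22 and 1.48 for WT, and 2.11 and 1.09 in Cnot4-null LZ against 4.43 and 6.52 for WT. Gstm7 had 10.6 and 11.3 in Cnot4-null PD against 0.582 and 0.639 for WT, and 1.81 and 1.20 in Cnot4-null LZ against 1.70 and 14.3 for WT. Gstm4 had 6.65 and 8.55 in Cnot4-null PD against 0.915 and 0.465 for WT, and 1.19 and 3.62 in Cnot4-null LZ against 1.36 and 5.25 for WT. At PD the genotypes did not overlap for any of the 3, with Cnot4-null on top. The share of all genes without overlap at PD was not computed, and 41.6% of all genes were called higher there. Their differences at PD were 2.35 ± 0.38 for Gstm6 (adjusted p = 0.00245), 2.89 ± 0.70 for Gstm7 (0.0126) and 2.35 ± 0.54 for Gstm4 (0.00993, limma). Gstm7 lost its call when any of the 4 PD libraries was left out (adjusted p from 0.0645 to 0.086), and Gstm4 lost it without WT PD replicate 2 or Cnot4-null PD replicate 2 (0.074 for each). Gstm7 also lost it with no filter (0.0588) and after quantile normalization (0.0751), and Gstm4 after quantile normalization (0.132) and after rescaling to one median (0.0509). Over all alternatives the adjusted p ran from 0.00144 to 0.086 for Gstm7 and from 0.00851 to 0.132 for Gstm4. Gstm3 was listed at 0 in 6 of the 8 libraries, at 1.33 in Cnot4-null LZ replicate 2 and at 0.466 in Cnot4-null PD replicate 1, and no contrast called it.

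Among the other classes, Gstt1, a theta-class enzyme that acts on small halogenated compounds, was listed at 0 in all 4 WT libraries. The Cnot4-null libraries had 0.999 and 0.177 FPKM at LZ, then 30.4 and 27.0 at PD. No fold is given against WT for that reason. Gstt1 exceeded an FPKM of 1 only in the Cnot4-null PD libraries and so passed the filter only through the group where it was high, and its values are given as a description. It stayed in the fit over all genes, but its test is not used.

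Gsta4, the alpha-class enzyme for lipid peroxidation products, overlapped between genotypes at LZ, with 18.6 and 35.5 FPKM (WT) and 25.4 and 20.7 (Cnot4-null). In WT PD it was at 2.38 and 3.11, below every LZ library, and in Cnot4-null PD at 41.4 and 48.9, above every other library. It fell by 2.84 ± 0.32 from LZ to PD in WT (adjusted p = 0.000243). At PD the genotypes differed by 3.62 ± 0.32 (adjusted p = 0.000274), a 16.4-fold ratio of mean FPKM.

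Gstp1 had the same shape. The LZ libraries had 10.9 and 10.1 FPKM (WT) and 8.01 and 11.99 (Cnot4-null), WT PD had 1.42 and 0, and Cnot4-null PD was highest with 24.7 and 27.6. It fell by 2.89 ± 0.42 from LZ to PD in WT (adjusted p = 0.000807), and the genotype difference at PD was 4.12 ± 0.42 (adjusted p = 0.000407). Gstp2, its near copy, had 0.234 and 0 (WT) and 3.96 and 2.07 (Cnot4-null) at PD.

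The first comparison asked how loss of Cnot4 changed these genes at LZ. None of the 9 genes other than Gstt1 was called (limma), and 3 had an unadjusted p under 0.05 (Gstm1, Gstm2 and Gstm6, each with both Cnot4-null libraries below both WT libraries). Of all genes tested, 3.62% had such a p and lay lower without overlap. By the adjusted p, 0.0692% were called higher and 0.0252% lower in this comparison. The median difference of the 9 was −0.29, against 0 over all genes. The Sertoli cell markers moved with the LZ values of Gstm1, Gstm2 and Gstm6. The 9 of them in the files summed to 82.3 and 77.5 FPKM in WT LZ and to 13.8 and 12.2 in Cnot4-null LZ, led by Clu (55.9 and 47.4 against 4.56 and 6.88), Aard (15.1 and 18.8 against 6.98 and 2.44) and Cldn11 (6.90 and 7.76 against 0.798 and 1.68), with Amh at 0 in all 4 LZ libraries and Fshr at 0 in 3. The ratio of Gstm2 to that sum was 0.298 and 0.455 in WT LZ and 0.272 and 0.472 in Cnot4-null LZ, so the genotypes overlapped on this ratio. None of the 7 Sertoli markers tested was called at LZ, and their part in the GST values was not tested.

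At PD, of the 9 genes other than Gstt1, 7 were called higher in Cnot4-null (Gstm1, Gstm2, Gstm4, Gstm6, Gstm7, Gsta4 and Gstp1), where 41.6% of all genes tested were higher. Gstm5 was called lower, where 11.5% of all genes were lower, and Gstm3 was not called. The median difference of the 9 was 2.89, against 0.66 over all genes. In each comparison the values over all genes keep those that exceeded an FPKM of 1 only in Cnot4-null PD. At PD the median over all genes was 0.30 among those with a mean FPKM of at least 5, and 0.17 with no filter. All 10 passed the filter on low values, Gstm3 only through Cnot4-null LZ replicate 2. The number called, 8 with Gstm5, was 5 without WT PD replicate 2 and 5 without Cnot4-null PD replicate 2. Calls for Gstm1, Gstm2, Gstm6, Gsta4 and Gstp1 held under each of the alternatives run, and Gstm1 stayed between 4.82 and 7.496 and Gstm2 between 4.57 and 6.78. The balance of calls over all genes depended on the scaling, with 6619 higher and 1830 lower as deposited, 2835 and 4078 after quantile normalization, and 3704 and 6378 after rescaling to one median. The 9 GST genes gave 5 higher and 1 lower and 6 higher and 1 lower under these scalings. Relative to the median of all genes, the differences were 5.53 for Gstm1, 5.25 for Gstm2, 3.46 for Gstp1, 2.96 for Gsta4 and −2.26 for Gstm5.

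**Figure D2:**
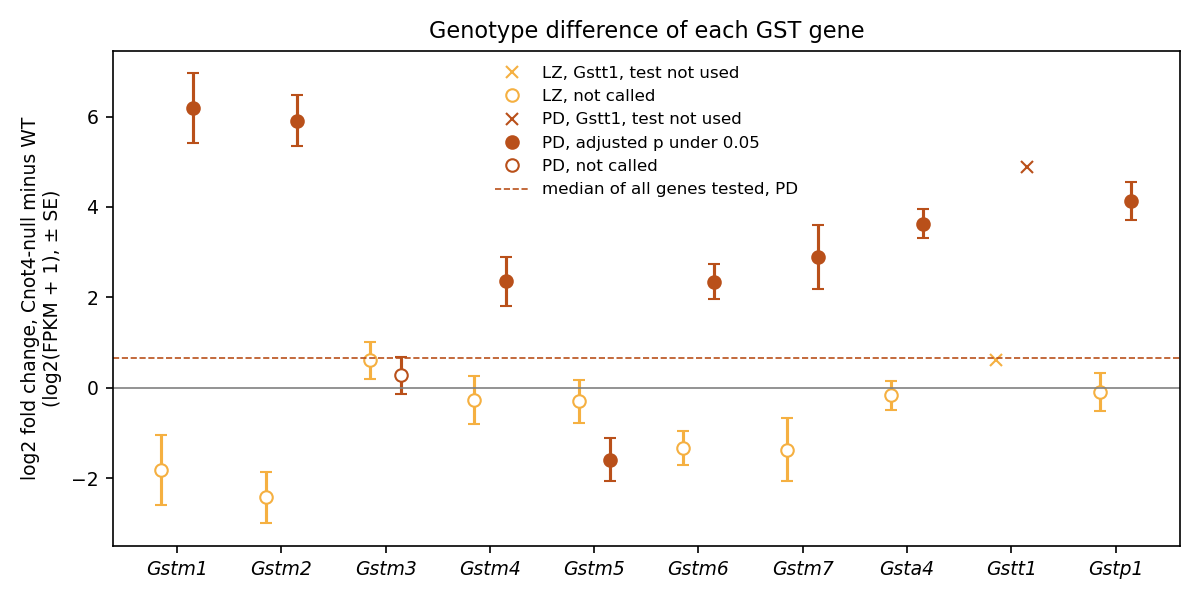
Difference in log2(FPKM + 1) between Cnot4-null and WT for each GST gene at LZ and at PD, with the SE from limma over 2 libraries per group, and filled points where the adjusted p was under 0.05. At PD 7 genes lie above the dashed median of all genes (0.66) and are called, Gstm5 lies below 0 at −1.60, and no gene is called at LZ. Crosses mark Gstt1, which passed the filter only through Cnot4-null PD, so that its test is not used.

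From LZ to PD in WT, Gstm5 was the only one of the 9 to be called higher (21.6% of all genes were), and 5 were called lower (Gstm2, Gstm6, Gstm7, Gsta4 and Gstp1, where 36.2% of all genes were). These differences were −2.89 for Gstp1, −2.84 for Gsta4, −1.996 for Gstm7, −1.89 for Gstm2 and −1.45 for Gstm6, and the median of the 9 was −1.45 against −0.32 over all genes. Those of Gsta4 and Gstp1 and the rise of Gstm5 held under every alternative. The other 3 were less firm. Gstm2 lost its call without WT LZ replicate 1 (adjusted p = 0.066), WT LZ replicate 2 (0.129), WT PD replicate 2 (0.124), Cnot4-null PD replicate 1 (0.0542) or Cnot4-null PD replicate 2 (0.0539). Gstm6 lost it without WT LZ replicate 2 (0.0797), WT PD replicate 1 (0.0835) or WT PD replicate 2 (0.0603), and Gstm7 without any library but WT LZ replicate 1 (0.0813 to 0.152). Over all alternatives the adjusted p ran from 0.00533 to 0.147 for Gstm2, from 0.0109 to 0.201 for Gstm6 and from 0.00111 to 0.173 for Gstm7. The difference of Gstm7 was −3.25 without WT LZ replicate 1 and −0.74 without WT LZ replicate 2, and that of Gstm2 was −1.02 without WT PD replicate 2. Gstm4 was called lower without WT LZ replicate 1 (adjusted p = 0.0277). Gstm1 was at −0.50 with no call, at −1.80 without WT PD replicate 1 (adjusted p = 0.0237) and at 0.81 without WT PD replicate 2. The number called was 3 without WT LZ replicate 2, and 3 without WT PD replicate 2. Over all genes the balance was 3436 higher and 5754 lower, and 5174 and 4265 after rescaling to one median.

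In Cnot4-null the same step called 7 of the 9 genes other than Gstt1 higher (all but Gstm3 and Gstm4, where 27.8% of all genes were higher) and none lower (18.2% of all genes were lower). Gstm1 rose by 7.51 ± 0.77 (adjusted p = 0.000562) and Gstm2 by 6.44 ± 0.57 (0.000409), which was 224-fold and 108-fold on mean FPKM. The median of the 9 was 2.23, against 0.19 over all genes. The rises of Gsta4 (0.94, adjusted p = 0.0466), Gstp1 (1.33, 0.0364) and Gstm7 (2.26, 0.0343) were not firm, whereas that of Gstm6 (2.23, 0.00333) held under each of the 15 alternatives that tested it. Gsta4 and Gstm7 lost their calls when any Cnot4-null or WT PD library was left out (adjusted p from 0.08 to 0.197 and from 0.0684 to 0.156), and Gstp1 when any LZ library or any Cnot4-null PD library was left out (0.0662 to 0.189). Gstm4 was called higher without WT LZ replicate 1 (0.0409) or WT LZ replicate 2 (0.0415). Without any 1 of the Cnot4-null libraries the number called was 4 in place of 7. Over all genes the balance was 4423 higher and 2893 lower, 2974 and 4986 after quantile normalization, and 3326 and 5183 after rescaling to one median, with 4 GST genes higher and none lower in each. The stage and genotype comparisons share libraries, so their calls are not independent of each other.

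The genotype effect at PD was set against that at LZ by the interaction term. It called 7 of the 9 genes other than Gstt1 higher (26.0% of all genes were) and none lower (3.97% of all genes were). The term was 8.34 ± 0.80 for Gstm2 (adjusted p = 0.00147) and 8.01 ± 1.08 for Gstm1 (0.00311), and from 2.62 (Gstm4) to 4.26 (Gstm7) for Gstm4, Gstm6, Gstm7, Gsta4 and Gstp1. The median of the 9 was 3.79, against 0.64 over all genes. Gstm4 lost its call without any library but WT LZ replicate 1 (adjusted p from 0.0554 to 0.144), and Gstm7 without any Cnot4-null or WT PD library (0.0551 to 0.0819). Over all genes the balance was 4139 higher and 631 lower, 1548 and 1966 after quantile normalization, and 2167 and 5146 after rescaling to one median. The last scaling gave 6 GST genes higher and Gstm5 lower (−2.78, adjusted p = 0.0135).

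Gstm2 was then set against its 6 mu-class paralogs within each PD library. Its log2(FPKM + 1) less the median of Gstm1, Gstm3, Gstm4, Gstm5, Gstm6 and Gstm7 was 2.86 and 1.15 (WT) and 5.18 and 5.55 (Cnot4-null). The groups did not overlap, and the difference between genotypes was 3.36 with an exact two-sided permutation p = 0.333, the smallest that 2 libraries against 2 can give. At LZ the same quantity was 2.74 and 1.76 in WT and 0.68 and 1.04 in Cnot4-null, without overlap and in the other direction.

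Taken gene by gene, the result depended on the paralog. Gstm2 less Gstm1 at PD was −1.20 and −0.33 (WT) and −1.16 and −0.93 (Cnot4-null), and the genotypes overlapped. Their ratio Gstm2 over Gstm1 was at PD 0.419 and 0.752 (WT) and 0.447 and 0.525 (Cnot4-null), and at LZ 1.79 and 1.40 (WT) and 0.682 and 1.52 (Cnot4-null). Gstm2 was thus above Gstm1 in 3 of the 4 LZ libraries and below it in all 4 PD libraries. Against Gstm4, Gstm6 and Gstm7 the difference was 3.56, 3.56 and 3.02 higher on average in Cnot4-null PD than in WT PD, with no overlap. Against Gstm5 it was 7.51 higher, with −8.04 and −9.60 in WT and −2.37 and −0.25 in Cnot4-null. Gstm3 was listed at 0 in 3 of the 4 PD libraries, so Gstm2 less Gstm3 only restates the level of Gstm2, and the pseudocount compresses the values of the other low paralogs. A level of Gstm2 is itself uncertain where its 50-base windows are shared. Of these windows, 43.65% also occurred elsewhere in the genome, and 5.6% occurred in another coding transcript (of Gm6665 or Gstm1). The stretch printed above is close to Gstm1, with 1 base between them, but is not identical.

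**Figure D3:**
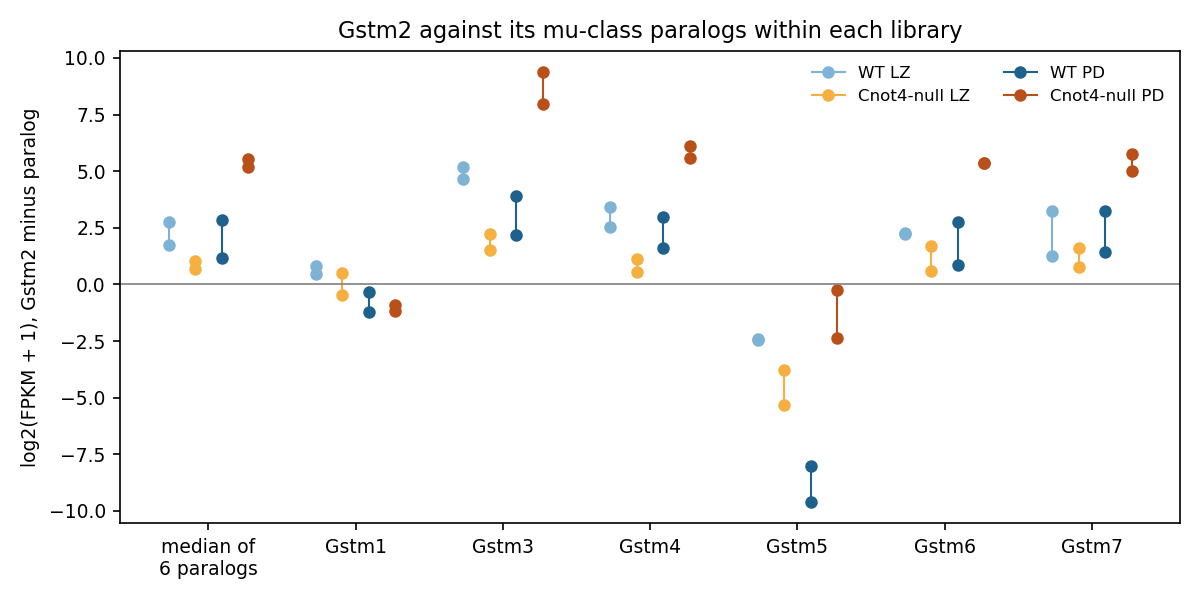
Gstm2 less each mu-class paralog and less their median, in log2(FPKM + 1), with 1 point per library and a line joining the 2 libraries of a group. In PD the genotypes separate for the median, Gstm4, Gstm5, Gstm6 and Gstm7, but not for Gstm1, where they lie between −1.20 and −0.33, and Gstm3, at or near 0, returns the level of Gstm2.

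The makeup of the mu-class RNA also differed between the groups. Gstm5 made up 98.7% and 99.7% of the summed mu-class FPKM in WT PD, but 61.0% and 28.8% of it in Cnot4-null PD. At LZ its share was 75.2% and 68.8% in WT and 92.9% and 84.7% in Cnot4-null. The summed level at PD was 3982 and 3473 FPKM (WT) and 3099 and 2743 (Cnot4-null), whereas the sum without Gstm5 was 50.1 and 10.7 (WT) and 1210 and 1954 (Cnot4-null). Of that sum in Cnot4-null PD, Gstm1 made up 67.7% and 64.4% and Gstm2 30.2% and 33.8%. These shares compare genes per length within a library, and they carry the uncertainty of the shared windows.

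**Figure D4:**
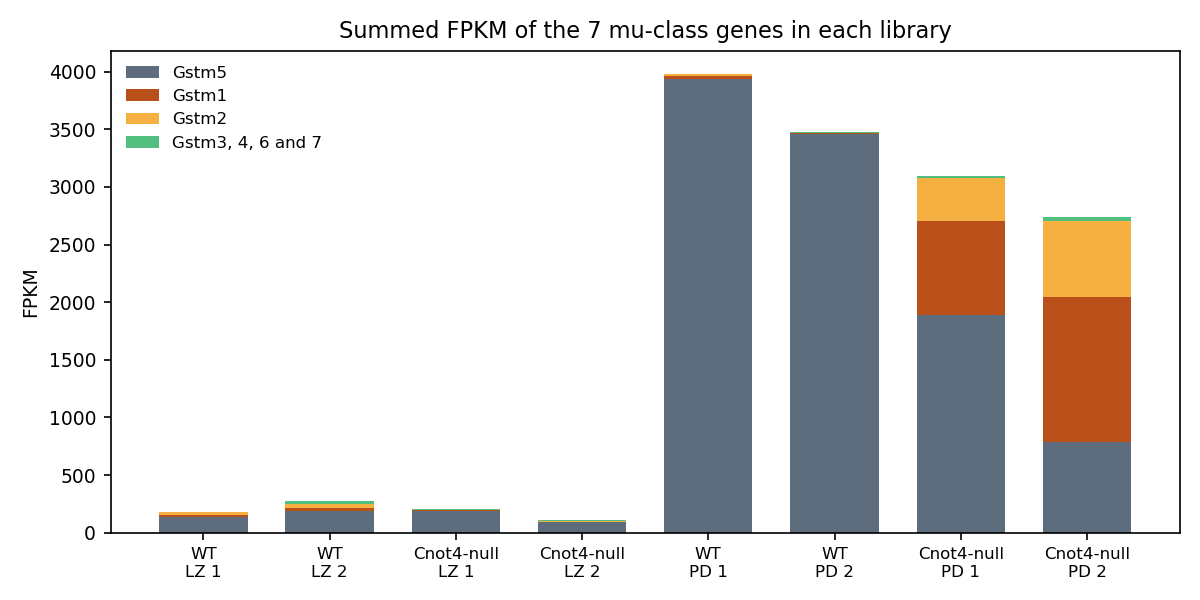
Summed FPKM of the 7 mu-class genes in each of the 8 libraries, with bars split by gene and starting at 0. Gstm5 fills 98.7% and 99.7% of the WT PD bars and 61.0% and 28.8% of the Cnot4-null PD bars, where Gstm1 and Gstm2 fill most of the rest.

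Markers of other testis cells moved with the PD values. The counts of calls below stand against 41.6% of all genes higher and 11.5% lower in this comparison. They leave out markers that exceeded an FPKM of 1 only in Cnot4-null PD, which had to be higher there, whereas the shares over all genes keep such genes. Of the 7 Leydig cell markers 3 were left out (Hsd3b1, Hsd3b6 and Lhcgr) and the other 4 were called higher in Cnot4-null PD. All 7 summed to 116 and 7.07 FPKM in WT PD and to 10077 and 22282.5 in Cnot4-null PD. Insl3, the Leydig cell hormone, was at 104 and 4.90 against 9669 and 21607.5, and Cyp17a1, an enzyme of androgen synthesis, at 4.93 and 0 against 168 and 278. Star, the cholesterol carrier of steroid synthesis, was at 3.67 and 2.098 against 22.6 and 16.4, so the order of the Cnot4-null PD replicates was not the same for all of these markers. At LZ the Leydig markers summed to between 9.89 and 19.0 in all 4 libraries, with no genotype call. The ratio of Gstm2 to the Leydig sum was 0.0363 and 0.0297 in Cnot4-null PD and 0.12 and 0.492 in WT PD, and at LZ 1.43 and 3.57 (WT) and 0.347 and 0.303 (Cnot4-null). Insl3 made up most of that sum in every library, so this ratio mostly sets Gstm2 against Insl3. A ratio without Insl3 was not computed, and the gap between genotypes is given for the full sum only. The log2 genotype difference at PD was 9.18 for Insl3 but 5.91 for Gstm2. Among the remaining Leydig markers it was 7.03 (Hsd3b1), 6.48 (Cyp17a1), 5.62 (Hsd3b6), 5.34 (Cyp11a1), 2.67 (Lhcgr) and 2.41 (Star). Gstm2 thus rose less than Insl3 and within the range of these remaining markers. The pseudocount compresses the differences of markers that were low in WT PD. In each PD library of either genotype, Gstm2 was above every Leydig marker other than Insl3. Of the 6 peritubular myoid markers 3 were left out (Cnn1, Des and Myh11) and the other 3 were called higher, and all 6 summed to 101 and 321 against 8.85 and 5.35. Of 7 Sertoli markers tested, 4 were higher and 1 lower, with a sum of 112 and 227 against 13.1 and 22.2, with Fshr at 0 in all 4 PD libraries and Amh at 0 in 3. The ratio of Gstm2 to the Sertoli sum was 3.27 and 2.92 in Cnot4-null PD and 1.07 and 0.157 in WT PD, so here the genotypes did not overlap. Clu made up 84.6% and 86.4% of that sum in Cnot4-null PD, and without it the ratio was 21.2 and 21.4 against 2.76 and 0.501. Without Csf1r and Emr1, 2 of 6 macrophage markers were higher, with sums over the list of 29.1 and 118 against 3.57 and 3.64. The endothelial markers that passed the filter, Cdh5 and Tek, did so only through Cnot4-null PD, so none is counted, and that list summed to 1.88 and 7.51 against 0.343 and 0.249. All 7 spermatogonium and all 8 spermatid markers were higher, and of 8 LZ spermatocyte markers 2 were higher and 4 lower. The part of these cells in the GST values was not tested.

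**Figure D5:**
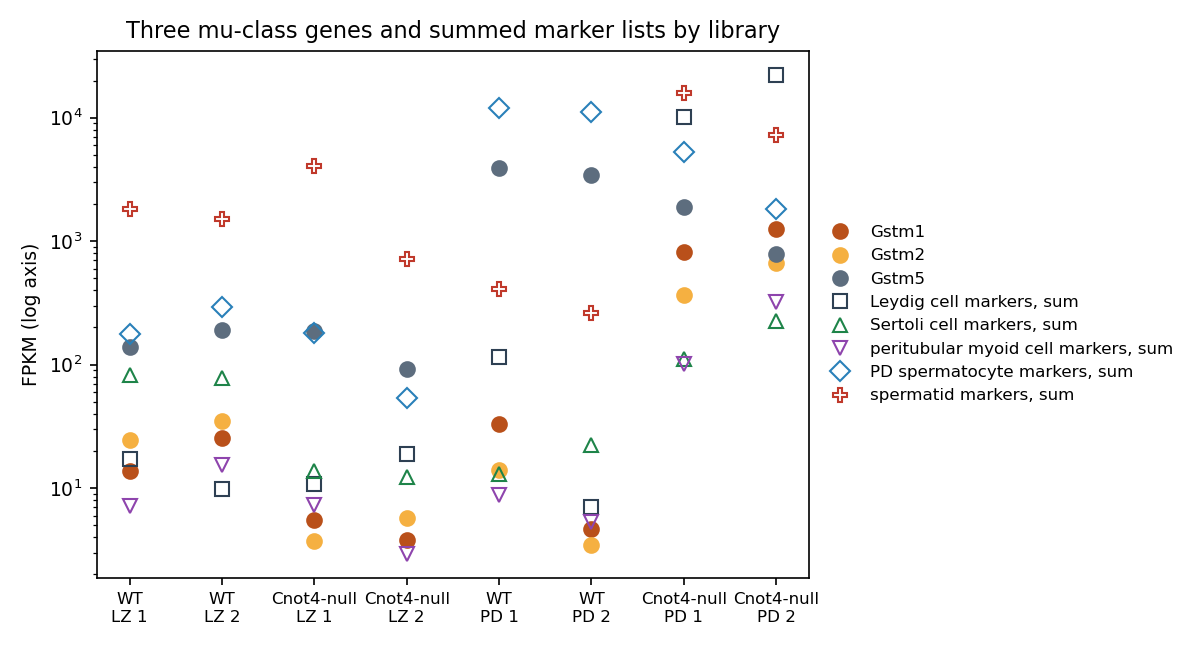
FPKM of Gstm1, Gstm2 and Gstm5 (filled) and summed FPKM of 5 marker lists (open) in each library, on a log axis. In Cnot4-null PD the Leydig sum reaches 10077 and 22282.5, where Gstm1 and Gstm2 are also highest, and the PD spermatocyte sum is lower than in WT PD, as is Gstm5.

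The genes most like Gstm2 were taken by Pearson correlation of log2(FPKM + 1) over the 8 libraries, among genes reaching 10 FPKM. The 10 highest were Ccdc28b (0.989), Prr13, Cldn3, Aldh1a1 (0.985), Mmd2, AU021092, Sparc, Dhrs7, Gstm1 (0.974) and Ccin (0.973). Of these, 8 reached 10 FPKM only in Cnot4-null PD, where Gstm2 was also high, so the minimum level itself favoured such genes, and only Sparc and Gstm1 reached it elsewhere. Aldh1a1, a retinaldehyde dehydrogenase, had 183 and 421 FPKM in Cnot4-null PD against 2.94 and 0.706 for WT, and at LZ 4.60 and 5.72 (WT) and 1.001 and 0.886 (Cnot4-null). Sparc, a matrix protein gene, was at 120 and 228 in Cnot4-null PD and at 4.16 and 3.47 in WT PD. Gstm1 was the only other GST gene of the 10. Further down came Gsta2 (0.936), Mgst1 (0.923), Gstm6 (0.910), Gstt1 (0.869), Gsta3 (0.855) and Gstm7 (0.804). Some Leydig, myoid and Sertoli markers, such as Tagln (0.946), Hsd3b6 (0.930) and Trf (0.916), stood in the same range. So did the spermatid markers Acrv1 (0.869), Spata18 (0.841) and Tnp1 (0.815). All of these but Gstm7, Acrv1 and Tnp1 reached 10 FPKM only in Cnot4-null PD, so the minimum level favoured them as well. The Sertoli markers Dhh, Cldn11, Sox9, Wt1, Fshr and Amh stayed under 10 FPKM in every library and were not ranked. Aard, a Sertoli marker that did reach 10 FPKM, correlated less with Gstm2 than the macrophage marker C1qa (0.785), so the Sertoli list did not move as one. Gsta4 and Gstp1 correlated with each other at 0.937 and with Gstm2 at 0.609 and 0.698, and Gstm5 with Gstm2 at 0.195. These correlations rest on 8 libraries in 4 groups and mostly on the height of the Cnot4-null PD pair.

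The genes around the Gstm cluster, within 500000 bases of it, numbered 26 in the files. Of the 21 tested, 8 were higher at PD in Cnot4-null, against 41.6% of all genes, and none was lower, against 11.5%. Without Csf1 and Kcnc4, which exceeded an FPKM of 1 only in Cnot4-null PD, 7 of 19 were higher, with a median difference of 0.50. The median over all genes was 0.66, but it and the 41.6% keep genes of that kind, so the neighbours and the background are filtered differently. The 8 were Ubl4b (3.66), 1700013F07Rik (3.16), Csf1 (2.78), Ampd2 (2.74), Psrc1 (1.94), Sort1 (1.77), Gnat2 (1.62) and Sars (1.23). The difference of each was smaller than that of Gstm1 or Gstm2, but those of Ubl4b and 1700013F07Rik were larger than those of Gstm7 (2.89), Gstm4 (2.35) and Gstm6 (2.35).

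Other GST genes were examined from lists of the pathway. Of 16 listed, 15 were tested, and 10 were higher and 2 lower in Cnot4-null at PD. The shares over all genes were 41.6% and 11.5%, and they are the background of each of the list counts that follow. Mgst1, a membrane-bound enzyme, was at 82.1 and 136 FPKM in Cnot4-null PD and at 7.45 and 1.43 in WT PD (4.56 ± 0.62, adjusted p = 0.00125). Gsta3, whose human counterpart is a ketosteroid isomerase, was at 31.2 and 46.1 against 0.668 and 0 (4.91 ± 0.37, adjusted p = 0.000188). Gstk1, the mitochondrial and peroxisomal kappa enzyme, was at 17.5 and 26.3 against 0.529 and 0.969. The 2 lower genes were Gsto2, an omega enzyme that reduces dehydroascorbate, at 160 and 74.0 against 260 and 257, and Gstt3 at 32.6 and 23.0 against 92.2 and 96.8. None of the 15 was called at LZ.

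The genes that make and recycle glutathione did not move as one. Of 16 tested of 19 listed, 9 were higher, 1 lower and 6 not called at PD. Without G6pd2, Ggt5 and Glrx, which exceeded an FPKM of 1 only in Cnot4-null PD, 7 of 13 were higher and 1 lower, with a median difference of 0.77. The 0.66 over all genes keeps such genes. Gsr, which reduces oxidised glutathione, was at 63.0 and 79.0 FPKM in Cnot4-null PD and at 2.49 and 1.57 in WT PD (4.58 ± 0.23, adjusted p = 9.49e-05). Pgd, an NADPH source, was at 17.6 and 28.4 against 2.28 and 2.32. The subunits of the rate-limiting enzyme of glutathione synthesis were not called: Gclc was at 14.8 and 16.6 against 22.4 and 21.4, and Gclm at 19.5 and 27.5 against 20.3 and 26.8. Gss, the final step of synthesis, was at 10.8 and 11.1 against 3.18 and 3.19 (1.51 ± 0.21, adjusted p = 0.00133).

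Among glutathione peroxidases, 5 of 6 tested (8 listed) were higher at PD and none was lower, with a median of 2.82. Gpx1, the common cytosolic form, was at 72.7 and 120 FPKM in Cnot4-null PD and at 3.96 and 1.39 in WT PD, whereas Gpx4, the phospholipid peroxidase abundant in male germ cells, was at 1216 and 608 against 1537 and 1475 and was not called. Of the exporters of glutathione conjugates, 4 of 5 tested (6 listed) were higher and Abcc3 was lower, at 12.2 and 6.42 against 32.4 and 33.0. Of 14 NRF2 pathway genes, 11 were higher and none lower. Without Aldh3a1, above an FPKM of 1 only in Cnot4-null PD, 10 of 13 were higher, with a median of 2.79. Nfe2l2, which encodes NRF2, was at 16.4 and 13.5 against 0.339 and 0.311 (3.58 ± 0.21, adjusted p = 0.000108), but at 26.4 and 25.7 in WT LZ and 19.9 and 19.1 in Cnot4-null LZ. Keap1, its inhibitor, was at 12.9 and 14.7 against 13.4 and 12.2 and was not called. None of these lists had a call at LZ.

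The order of levels can be read within each group. In WT LZ, WT PD and Cnot4-null LZ, Gstm5 was the highest of the 10 in every library, and in Cnot4-null PD it was highest in replicate 1 and came after Gstm1 in replicate 2. Gstm1 and then Gstm2 came next in both WT PD libraries, with 33.4 and 14.0 FPKM in replicate 1 and 4.63 and 3.48 in replicate 2, where Gsta4 (3.11) was close to them. In Cnot4-null PD the order below Gstm1, Gstm5 and Gstm2 was Gsta4 in both libraries, then Gstt1 and Gstp1 in an order that changed between replicates. Gstm3 was last or tied at 0 in all but Cnot4-null LZ replicate 2.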

How the data were processed

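RNA-seq was read from 8 libraries of spermatocytes, 2 in each of 4 groups, and grouped by the genotype and stage in their labels. The FPKM values were deposited by the authors as 1 table per library. According to the methods and processing notes, reads were trimmed to 50 bases and mapped to mm9 with TopHat2 2.1.1, unique alignments were kept, and FPKM was computed by Cufflinks 2.2.1 over UCSC gene models. The labels name a TruSeq library from Trizol-extracted total RNA, the methods Smart-Seq2 amplification; which was used is not known here. The deposited files hold no read counts, and read totals stated for the libraries were not used here, so no counting error is given. Neither strand-specific counting nor the handling of shared reads beyond uniqueness is stated.

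The filter of the methods, an FPKM over 1 in any library, left 15899 of 23235 genes. The fit used log2(FPKM + 1), so a fold understates the change of low genes. R 4.3.3 ran limma 3.58.1, with a model of 4 groups and moderation by eBayes (trend on). Benjamini-Hochberg adjustment covered all genes, separately for each of 5 contrasts. All tests are two-sided. The exact permutation test compared Gstm2 with its paralogs over the 4 PD libraries. The fitting procedure was tested on simulated data. Each group has only 2 libraries, so the error of a gene leans on the fit across genes.

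The members and gene lists were chosen with earlier results of these data known. Named are all members, the 10 genes most like Gstm2, the called neighbours of the cluster, and from each list its counts with up to 4 of its most abundant genes. Some of the list genes named were instead chosen for their role after their values were seen. The alternatives were no filter, a mean FPKM of at least 5, a pseudocount of 0.1, quantile normalization, rescaling to the same median, eBayes without a trend, only the libraries compared, a replicate block and each library left out. Positions and transcripts are from GENCODE vM1 on the mm9 assembly, and 50-base windows were searched with BLAST 2.17.0 and by exact match. The other software was Biopython 1.88, matplotlib 3.10.9, scipy 1.17.1, pandas 2.3.3 and numpy 2.4.6 under Python 3.11.15.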

Additional observations from a re-analysis of the deposited data

Results flagged for a closer look

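The genotype effect differed between the stages for 7 of the 9 GST genes other than Gstt1, by limma's interaction term. Of all genes, 26.0% were called higher by this term. The difference, as the effect at PD minus the effect at LZ on the log2 scale, was 8.34 for Gstm2, 8.01 for Gstm1, 4.26 for Gstm7, 4.21 for Gstp1, 3.79 for Gsta4, 3.68 for Gstm6 and 2.62 for Gstm4. The call was lost in 10 of 14 alternatives for Gstm4 and in 8 of 15 for Gstm7. For Gstm1, Gstm2 and Gstm6 both Cnot4-null libraries lay below both WT libraries at LZ and above them at PD. Of all genes, 3.62% lay lower at LZ without overlap and with an unadjusted p under 0.05 (limma). The share with both patterns was not computed, so this count has no background. Groups of 2 libraries are too small to test for a library that stands apart.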

How the results depend on the processing

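Counts are over 9 genes, since Gstt1 passed the filter only through Cnot4-null PD. No GST gene was called at LZ under any alternative. At PD the number called (8) ran from 5 to 8 over the libraries left out and from 6 to 8 otherwise. For the step from LZ to PD in WT, 6 were called; quantile normalization and rescaling to the same median each gave 3, and leaving out 1 library gave 3 to 6. In Cnot4-null, 7 were called; no filter, quantile normalization and the common median each gave 4, and leaving out 1 library 4 to 7. The interaction called 7, with 5 to 7 elsewhere. Without a trend, or with only the libraries compared, no number moved by more than 1.5 times. The cause was not tested.

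Directions reversed only for values that were not called. Gstm3 at PD was −0.024 after quantile normalization. Over the libraries left out, its step in Cnot4-null and its interaction each ran from −0.94 to 0.28, and at LZ Gstm4 ran from −0.98 to 0.43, Gstm5 from −0.80 to 0.21, Gsta4 from −0.61 to 0.29 and Gstp1 from −0.35 to 0.18. The WT step of Gstm1 ran from −1.80 to 0.81, and was 0.32 after rescaling to the same median. The Gstm2 difference from its paralogs was −0.28 with Gstm1 as the paralog.

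With the replicate block, the numbers called were 0, 8, 6, 8 and 7 in the 5 contrasts, where 8 in Cnot4-null came from Gstm4 (adjusted p = 0.0479). Deviations of same-numbered libraries correlated at −0.07 to 0.19, so the numbers are not shown to pair the libraries. Leaving out 1 library leaves a group of 1, assumed to vary like the others.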
